A study of Homo sapiens with 6 samples.

Results

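The 10 genes described here encode regulators of transcription that pattern the paraxial mesoderm and the somites: MEOX1, MEOX2, FOXC1, FOXC2, TBX6, TCF15, RIPPLY1, MESP1, MSGN1 and PAX1. They were taken by symbol from a table of 59653 gene symbols, and each of the 10 had a row. MEOX1, FOXC1 and RIPPLY1 were chosen because earlier results from these libraries had them higher after SOX2 knockdown, so the values of the 10 genes in this comparison are given as a description and without a test. The libraries come from PA1, an established human ovarian teratocarcinoma line labelled wild type, whose cells express the pluripotency factor SOX2. Cells growing on plastic received either a negative control small interfering RNA (siRNA) or siRNA against SOX2; 2 SOX2 siRNAs are named, and whether they were mixed is not in the labels. After 24 h all cells went to plates coated with poly-HEMA, on which they cannot attach, and RNA was taken after 72 h in suspension. Each group had 3 libraries, numbered 1 to 3. The labels do not say whether the numbered libraries came from separate cultures, so p-values measure only the spread between these libraries.

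Paraxial mesoderm is the tissue on either side of the neural tube that is cut into somites, the blocks from which vertebrae, ribs, skeletal muscle and dermis form. Cells enter it from the primitive streak and tailbud, where TBX6 and MSGN1 establish presomitic identity; in the mouse embryo TBX6 also holds down Sox2, and cells without it turn neural. At the front of the presomitic mesoderm MESP2 sets the segment boundary, RIPPLY proteins end the action of TBX6, and FOXC1, FOXC2, MEOX1, MEOX2 and TCF15 act as the somite forms and becomes epithelial. PAX1 comes later, in the sclerotome that builds the vertebrae.

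The start regions of 4 of the genes show how unlike their promoters are. The RefSeq table used here (GRCh38.p14) held 5 of the 10 genes, and the 250 bases before the start are printed for RIPPLY1, FOXC1 and TBX6, which were higher after SOX2 knockdown, and for MSGN1, which was near 0. Capitals mark matches on either strand to any of 3 motifs. The SOX core was searched as ACAATG. The T-box core, the central part of the sequence bound by TBX6 and EOMES, was searched as AGGTGT. The TATA box, at which transcription machinery is placed in some promoters, was searched as TATAAA. The windows are chrX:106903342-106903591 on the minus strand, chr6:1609665-1609914 on the plus strand, chr16:30091925-30092174 on the minus strand and chr2:17816210-17816459 on the plus strand, in that order.
RIPPLY1: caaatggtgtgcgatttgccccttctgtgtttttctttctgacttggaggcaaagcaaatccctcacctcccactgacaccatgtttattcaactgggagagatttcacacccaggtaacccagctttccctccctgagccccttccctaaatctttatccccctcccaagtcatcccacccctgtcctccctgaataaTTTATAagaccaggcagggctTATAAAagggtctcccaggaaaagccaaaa
FOXC1: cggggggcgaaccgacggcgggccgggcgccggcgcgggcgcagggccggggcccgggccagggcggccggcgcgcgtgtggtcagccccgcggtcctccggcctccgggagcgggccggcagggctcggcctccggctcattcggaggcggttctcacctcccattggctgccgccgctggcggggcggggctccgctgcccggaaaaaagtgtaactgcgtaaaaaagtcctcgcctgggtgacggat
TBX6: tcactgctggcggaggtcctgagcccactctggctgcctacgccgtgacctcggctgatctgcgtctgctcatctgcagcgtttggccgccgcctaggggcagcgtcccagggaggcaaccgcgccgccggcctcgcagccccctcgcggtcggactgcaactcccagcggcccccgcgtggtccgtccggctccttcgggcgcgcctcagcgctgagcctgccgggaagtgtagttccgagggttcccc
MSGN1: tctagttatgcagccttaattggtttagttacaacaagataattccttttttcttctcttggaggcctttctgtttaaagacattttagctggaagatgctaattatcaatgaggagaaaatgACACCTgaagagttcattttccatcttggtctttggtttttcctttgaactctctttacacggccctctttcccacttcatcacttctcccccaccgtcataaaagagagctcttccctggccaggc

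None of these windows, nor those of MEOX2 and of the MESP1 paralog MESP2, held the SOX core, which occurred in 9.29% of 35116 promoter windows of the same length. RIPPLY1 had TATAAA on its own strand 30 bases before the start and TTTATA, the same letters on the other strand, 51 bases before it; 10.7% of all windows held such a match. MSGN1 had 1 T-box core, 127 bases before the start, which overlaps an E-box (CANNTG, held by 61.8% of windows). MESP2 had 2 T-box cores, 150 and 79 bases before its start, against 9.57% of windows with at least 1. The FOXC1 and TBX6 windows were rich in G and C, at 76.8% and 72.0%, with 37 and 28 CpG dinucleotides. The RIPPLY1 window was at 48.8% with 1 CpG and the MSGN1 window at 40.8% with 2, where the median window had 58.0% G and C. These matches describe letters in a short window and say nothing about binding.

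Depth ranged from 25152313 to 32753184 counts per library, so that 3 counts, taken as the smallest amount told from none, equal 0.0908 to 0.120 CPM (counts divided by the scaled size of the library). SOX2, the targeted gene, had 8093, 6647 and 7396 counts with control siRNA and 1564, 1776 and 1513 with SOX2 siRNA, which is -2.28 as a log2 fold change (SE 0.0437; edgeR's adjusted p = 5.97e-16). Of 12 markers listed for PA1 as embryonal cells, 7 stood at 1 CPM or more in every library, among them POU5F1, LIN28A and SALL4, while TDGF1 and ZFP42 had at most 3 counts in any library. Of 16 markers of other cell types, 4 stood at 1 CPM or more in every library: PECAM1, CDH5, VWF and DES. Another 7 had at most 3 counts in every library, and of these HBB, KRT14 and CGA had 0. The summed level of the 16 was 88.3 to 90.4 CPM in control and 61.6 to 65.8 CPM in SOX2 siRNA libraries, most of it PECAM1; its part in the results was not tested. The liver gene ALB varied inside both groups, with 68, 22 and 3 counts in control and 57, 2 and 28 counts in SOX2 siRNA libraries 1 to 3. EPCAM and L1TD1, both on the PA1 list, also varied. EPCAM had 123, 42 and 25 counts in control and 107, 20 and 63 in SOX2 siRNA libraries. L1TD1 had 88, 47 and 24 in control and 58, 31 and 61 in SOX2 siRNA libraries.

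After SOX2 knockdown PA1 cells carried more RNA of FOXC1, MEOX1, TCF15 and TBX6 and had reads of RIPPLY1, which no control library held. MEOX2 and PAX1 stayed at 0, and MSGN1 stayed under the limit of detection of 3 counts. FOXC2 was low, with at most 8 counts in any library, and its groups overlapped. MESP1 was low in both groups, with 9 counts over the control and 22 over the SOX2 siRNA libraries. It did not pass the filter on low counts. Of the 10 genes, 5 passed the filter on low counts, and those 5 were called higher in the fit across all genes, where 28.2% of 17592 tested genes were called in either direction, 14.8% higher and 13.4% lower. Nothing is read from that count, since the genes were chosen on this comparison and RIPPLY1 passed the filter only through the group in which it was high. All SOX2 siRNA libraries lay above all control libraries for the 5 tested genes, an order found in 21.5% of tested genes. MESP1 had the same order, but that share does not cover genes too low to test. In bulk RNA, more cells that express a gene and more RNA per cell cannot be told apart.

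**Figure D1:**
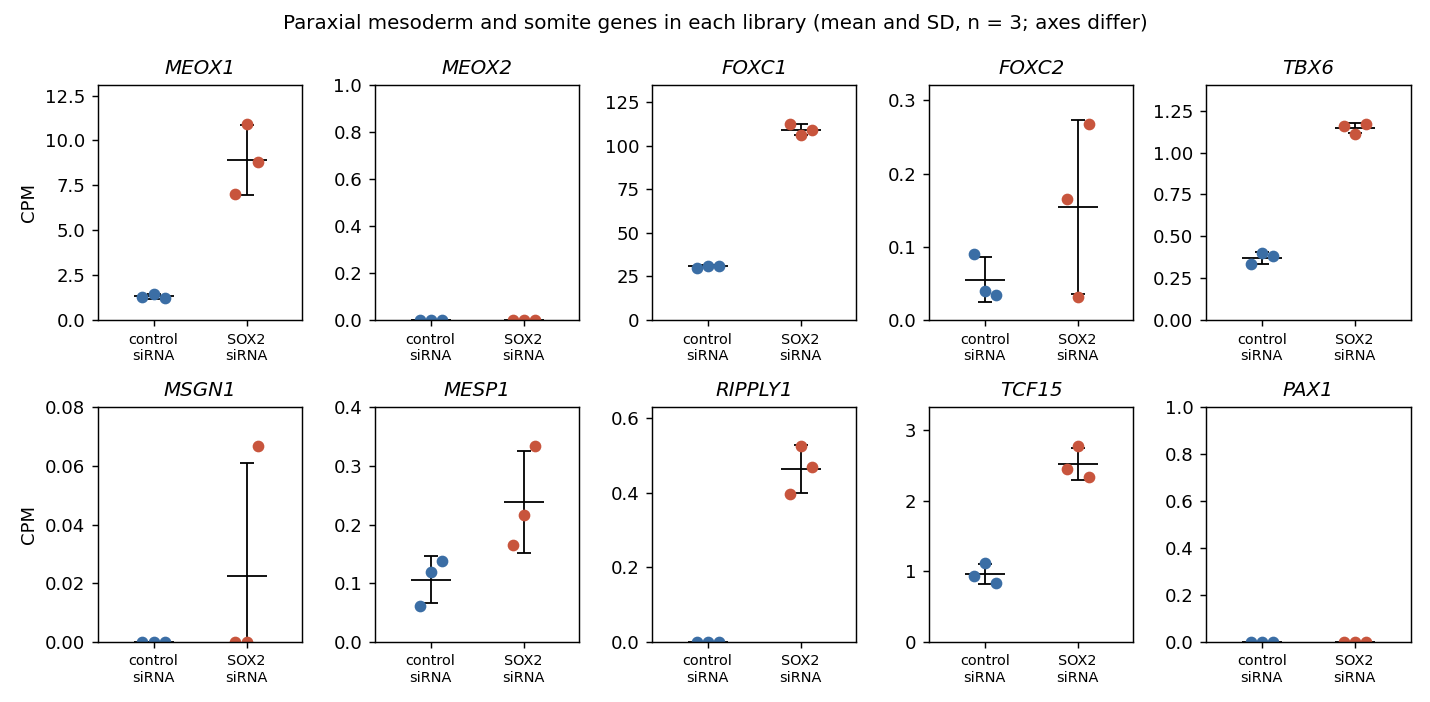
Level of each of the 10 genes in CPM (vertical axis, scaled per gene) in the 3 control siRNA (blue) and 3 SOX2 siRNA (red) libraries; points are libraries 1 to 3 from left to right, bars the mean and SD. FOXC1 sits near 30.7 CPM in control and 109 CPM after SOX2 siRNA, RIPPLY1 leaves 0, and MEOX2 and PAX1 are at 0 throughout.

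Of the presomitic factors TBX6, MSGN1 and MESP1, only TBX6 passed the filter on low counts. The control libraries of TBX6 lay near the CPM minimum of that filter, 0.333. TBX6 (chromosome 16, 30085793 to 30091887, GRCh38), the T-box factor of presomitic mesoderm, had 11, 10 and 11 counts in control and 35, 36 and 35 in SOX2 siRNA libraries. The 3 libraries of each group lay close together and the groups did not overlap. At such counts counting error alone is wider than that spread, so the closeness is not read as precision. Its level went from 0.371 ± 0.0339 to 1.15 ± 0.0306 CPM (SD, n = 3), a log2 fold change of 1.63 (SE 0.270), or 3.09-fold. MSGN1 (chromosome 2, 17816496 to 17817101), a helix-loop-helix factor that works beside TBX6, had 0 counts in 5 libraries and 2 counts in SOX2 siRNA library 3. Both groups are at or under the 3-count limit, so no fold is given. MESP1 (chromosome 15, 89748661 to 89751310), which marks the earliest mesoderm leaving the streak, had 2, 3 and 4 counts in control and 5, 7 and 10 in SOX2 siRNA libraries. The SOX2 siRNA libraries were the higher ones, and in all 31 counts stood behind the comparison, 9 against 22. The ratio of the group totals was 2.30, with a 95% interval of 1.02 to 5.68 from an exact binomial calculation that covers counting error only. That interval is not read as a test. When every gene with at least 1 count in total was fitted, MESP1 was not called (log2 fold change 1.17, edgeR's adjusted p = 0.265). FOXC2 and MSGN1 were not called there either (edgeR's adjusted p = 0.352 and 0.502).

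RIPPLY1 (chromosome X, 106900063 to 106903335), a small repressor that recruits Groucho-type corepressors to T-box factors, went from no reads to a low level. It had 0 counts in each control library and 12, 17 and 14 counts in SOX2 siRNA libraries, or 0.397, 0.525 and 0.468 CPM. Against the 3-count limit of the shallowest control library the SOX2 siRNA mean of 0.464 ± 0.0642 CPM (SD, n = 3) was at least 3.87-fold higher. An exon of RIPPLY1 overlaps an exon of CLDN2 on the opposite strand, and the use of strand in counting is not given in the sources used here. CLDN2, looked at for that reason after its values were seen, had 0, 2 and 0 counts in control and 1, 2 and 1 in SOX2 siRNA libraries. Reads in the shared stretch cannot be assigned to one of the 2 genes without strand.

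FOXC1 carried most of the counts. It lies on chromosome 6 (1609972 to 1613897) and encodes a forkhead factor of paraxial mesoderm that is also known from eye and vessel development. Its counts were 992, 777 and 901 in control and 3393, 3439 and 3250 in SOX2 siRNA libraries. The spread inside each group was small, with coefficients of variation of 1.96% and 2.78%, and the groups were far apart. The level went from 30.7 ± 0.603 to 109 ± 3.03 CPM (SD, n = 3), a log2 fold change of 1.83 (SE 0.0438), or 3.55-fold. FOXC1 made up 90.8% to 92.3% of the summed counts of the 10 genes in control and 87.2% to 90.8% in SOX2 siRNA libraries. Its close relative FOXC2 (chromosome 16, 86566829 to 86569728), which overlaps FOXC1 in function in the embryo, had 3, 1 and 1 counts in control and 5, 1 and 8 counts in SOX2 siRNA libraries. The groups overlapped, and the ratio of totals, 2.64, had a counting interval of 0.897 to 9.35. FOXC2 shares exon sequence with the antisense gene FOXC2-AS1, which had 0 counts in every library.

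Of the homeobox pair, MEOX1 was present and MEOX2 was not. MEOX1 (chromosome 17, 43640388 to 43661954), which keeps somite identity and is needed for the joints of the axial skeleton, had 43, 37 and 35 counts in control and 212, 353 and 263 counts in SOX2 siRNA libraries. Library 2 of the SOX2 siRNA group was highest and library 1 lowest, and the lowest was still above every control library. The level went from 1.33 ± 0.135 to 8.91 ± 1.95 CPM (SD, n = 3), with a log2 fold change of 2.75 (SE 0.172), or 6.72-fold. The coefficient of variation over the SOX2 siRNA libraries was 21.9%, the widest of the 5 tested genes, beside 13.9% for RIPPLY1, 9.09% for TCF15, 2.78% for FOXC1 and 2.67% for TBX6. Counting error is larger in genes of low count such as TBX6 and RIPPLY1, so these coefficients do not rank how steady the genes are. MEOX2 (chromosome 7, 15611212 to 15686812), the paralog that takes part in limb muscle and vessel development, had 0 counts in all 6 libraries.

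TCF15 (chromosome 20, 603797 to 610398), also called paraxis, is the helix-loop-helix factor that turns a forming somite into an epithelium. It had 31, 28 and 24 counts in control and 74, 90 and 70 counts in SOX2 siRNA libraries, with no overlap between the groups. The level went from 0.961 ± 0.145 to 2.52 ± 0.229 CPM (SD, n = 3), a log2 fold change of 1.40 (SE 0.198), or 2.63-fold. PAX1 (chromosome 20, 21705659 to 21718486), the paired-box factor of the sclerotome, had 0 counts in all 6 libraries. For MEOX2 and PAX1, 0 counts in a library allow a level of up to 0.0908 to 0.120 CPM.

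**Figure D2:**
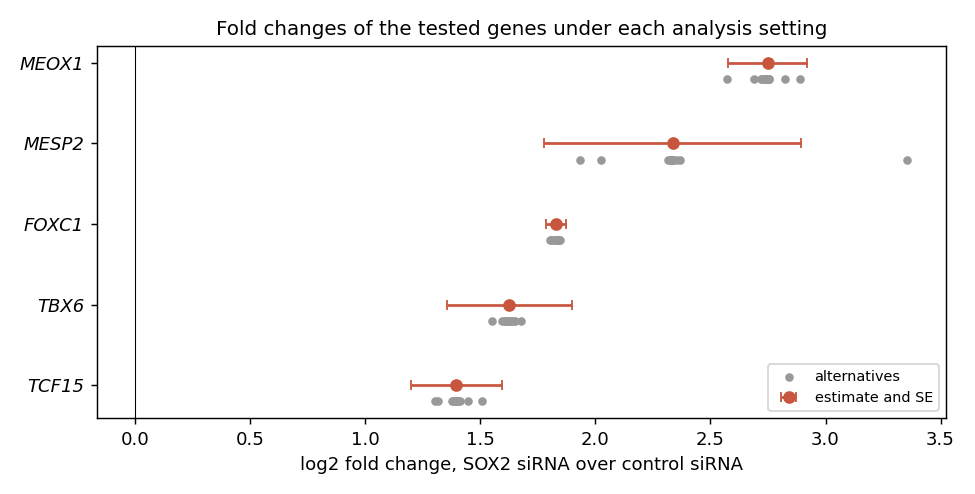
Log2 fold change of SOX2 siRNA over control siRNA (horizontal axis) for 4 of the tested genes and for MESP2, with the estimate and its SE (red) and the values under each alternative analysis setting (grey). MEOX1 lies at 2.75 and TCF15 at 1.40; RIPPLY1 is left out because its control libraries are at 0, and MESP2 reaches 3.35 when control library 2 is left out.

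Levels of different genes were compared per kilobase of exon, with exon lengths from GENCODE 29. In the control libraries the order was FOXC1 (7.82 ± 0.154 CPM per kb), TCF15 (0.618 ± 0.0932), MEOX1 (0.491 ± 0.0499) and TBX6 (0.118 ± 0.0108; SD, n = 3 each). The library ranges of TCF15 and MEOX1 overlapped, so their order is not resolved. MESP1, MESP2 and FOXC2 followed below 0.05 CPM per kb, with overlapping ranges from each to the next. In the SOX2 siRNA libraries MEOX1 stood second at 3.29 ± 0.720 CPM per kb, behind FOXC1 at 27.8 ± 0.772 and ahead of TCF15 at 1.62 ± 0.147, with no overlap between these neighbours. RIPPLY1 (0.390 ± 0.0540) and TBX6 (0.366 ± 0.00977) overlapped, and MESP2 came next at 0.206 ± 0.00191 CPM per kb.

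**Figure D3:**
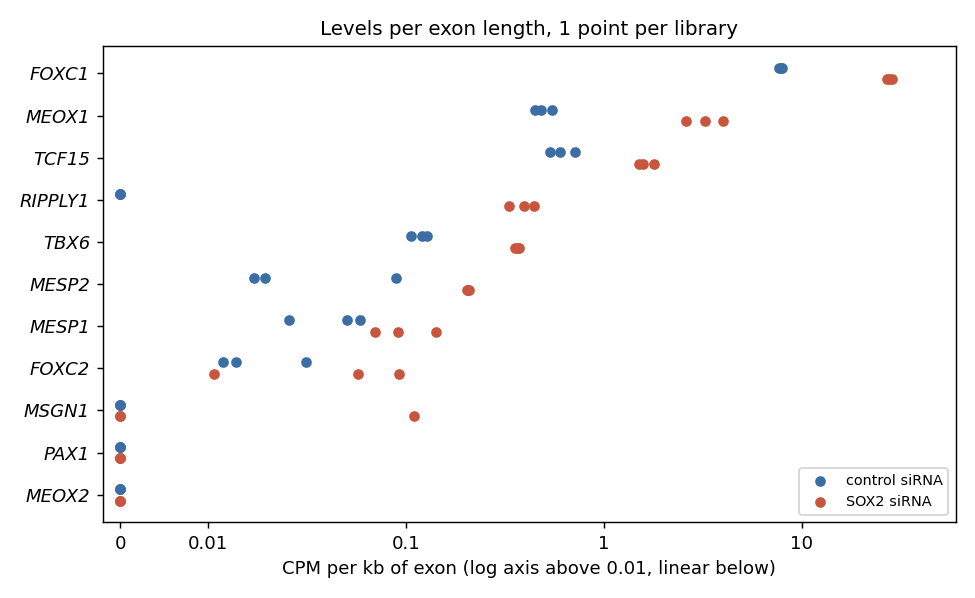
Level per kilobase of exon (horizontal axis, CPM per kb, log scale above 0.01 and linear below) of the 10 genes and MESP2, 1 point per library, control siRNA in blue and SOX2 siRNA in red. FOXC1 leads in both groups, at 7.82 and 27.8 CPM per kb on average, and MEOX1 passes TCF15 in the SOX2 siRNA libraries.

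The nearest relatives of the 10 genes were looked at next, in a list of 12 paralogs of which 7 could be tested. This list and those below were chosen with earlier results of these data known, so their counts of calls are a description. MESP2 and TBX1 were called higher, FOXF2 and MSC lower, and RIPPLY3, PAX9 and TBX15 did not pass, where 28.2% of all tested genes were called in either direction. The median log2 fold change of the 7 was 0.20, against -0.00085 over all tested genes. MESP2, the boundary-setting paralog of MESP1, had 1, 4 and 1 counts in control and 11, 12 and 11 in SOX2 siRNA libraries. The SOX2 siRNA libraries were nearly level and all above control, at counts where counting error is wider than the spread seen. The log2 fold change was 2.34 (SE 0.559), and it was 3.35 without control library 2, which holds 4 of the 6 control counts. MESP2 passed the filter on low counts only through the SOX2 siRNA libraries, so its call is given without a p. TBX1, a T-box factor of pharyngeal mesoderm, went from 2.05 ± 0.0755 to 3.87 ± 0.578 CPM (SD over n = 3 libraries; log2 fold change 0.91, edgeR's adjusted p = 2.51e-04). MSC, a helix-loop-helix repressor of muscle genes, had a log2 fold change of -0.34 (edgeR's adjusted p = 0.0240) and lost that call in 5 of the alternative settings. RIPPLY2 and TBX18, 2 further somite genes, had 0 counts in all 6 libraries. RIPPLY3 had 25, 15 and 29 counts in control and 24, 26 and 34 in SOX2 siRNA libraries and did not pass.

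FOXC1 and FOXC2 each sit in a cluster of forkhead genes, and the neighbours of FOXC1 were called in both directions or did not pass. On chromosome 6, FOXF2 fell from 2.36 ± 0.351 to 1.29 ± 0.254 CPM (SD over n = 3 libraries; log2 fold change -0.87, SE 0.206; edgeR's adjusted p = 0.00384). FOXQ1 had 17, 5 and 6 counts in control and 19, 2 and 6 in SOX2 siRNA libraries and was not tested. GMDS, the enzyme gene on the other side of FOXC1, had 663, 512 and 616 counts in control and 606, 662 and 589 in SOX2 siRNA libraries and did not pass. FOXCUT, a non-coding gene upstream of FOXC1 on the same strand, had 25, 13 and 18 counts in control and 42, 44 and 34 in SOX2 siRNA libraries. Its log2 fold change of 1.02 (SE 0.249; edgeR's adjusted p = 0.00509) had the same sign as that of FOXC1. In the FOXC2 cluster on chromosome 16, FOXF1, FOXL1 and the non-coding FENDRR had at most 4 counts in any library, and MTHFSD did not pass. Of these 9 neighbours, 4 were tested and 2 called, where 28.2% of all tested genes were called in either direction. The median log2 fold change of the 4 was -0.08.

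Genes of the primitive streak and tailbud, from which paraxial mesoderm arises, were called in both directions. Of 20 listed genes 14 were tested, and 9 were called higher and 4 lower, where 28.2% of all tested genes were called in either direction, 14.8% higher and 13.4% lower. The median log2 fold change of the list was 0.66. Nothing is read from the counts of calls, since the list was chosen with earlier results of these data known. EVX1 and FGF8, counted as higher, did not reach the filter in every control library. EOMES, the T-box factor that starts mesoderm and endoderm and acts upstream of MESP1 in the mouse, had 143, 111 and 143 counts in control and 1012, 1068 and 1104 in SOX2 siRNA libraries (log2 fold change 2.92, SE 0.0780; edgeR's adjusted p = 2.01e-14). MIXL1, a streak homeobox gene, had 50, 45 and 65 counts in control and 251, 268 and 300 in SOX2 siRNA libraries (log2 fold change 2.26; edgeR's adjusted p = 1.99e-09). TBXT, the streak and notochord T-box factor also called brachyury, had 0 counts in all 6 libraries, and WNT3A had at most 2. EVX1, a homeobox gene of the posterior streak, had 4, 2 and 2 counts in control and 42, 41 and 33 in SOX2 siRNA libraries, and it passed the filter only through the latter. FGF8, the ligand that keeps presomitic cells immature, had 17, 10 and 8 counts in control and 73, 80 and 84 in SOX2 siRNA libraries (log2 fold change 2.67), with 1 control library under the CPM minimum of the filter. CYP26A1, which breaks down retinoic acid in the tailbud, went from 0.424 ± 0.0253 to 5.21 ± 0.370 CPM (SD over n = 3 libraries; log2 fold change 3.60; edgeR's adjusted p = 8.64e-11).

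The 4 genes of this list that fell were NKX1-2, SP8, CDX2 and WNT8A. NKX1-2, a homeobox gene of tailbud progenitors, fell from 51.2 ± 0.794 to 24.3 ± 1.04 CPM (SD over n = 3 libraries; log2 fold change -1.08; edgeR's adjusted p = 2.72e-11). SP8, a zinc-finger factor that works with Wnt signalling, had 399, 323 and 371 counts in control and 114, 121 and 111 counts in SOX2 siRNA libraries (log2 fold change -1.75). CDX2 and WNT8A had log2 fold changes of -1.54 and -1.28. In each of the 4 genes every SOX2 siRNA library was below every control library. The share of all tested genes with that order was not computed. Nothing is read from the order, since the 4 genes were picked as called lower. CDX1, unlike its relative CDX2, rose, with 149, 117 and 149 counts in control and 275, 331 and 276 in SOX2 siRNA libraries (1.99-fold; edgeR's adjusted p = 6.31e-07).

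In the list of segmentation clock and boundary genes, 20 of 23 were tested, and 11 were called higher and 5 lower, where 28.2% of all tested genes were called in either direction. The median log2 fold change of the list was 0.41. HES7, the oscillating repressor at the core of the clock, was near 0, with 3, 3 and 1 counts in control and 9, 3 and 3 in SOX2 siRNA libraries. DLL1, the main Notch ligand of presomitic mesoderm, had at most 10 counts in any library. DLL3, a Notch ligand needed for segmentation and also made in neural and neuroendocrine cells, had 29, 29 and 26 counts in control and 118, 105 and 106 in SOX2 siRNA libraries. Its log2 fold change was 1.87 (SE 0.183; edgeR's adjusted p = 4.74e-07). LFNG, the glycosyltransferase that modulates Notch in the clock, went from 5.60 ± 0.497 to 8.92 ± 0.403 CPM (SD over n = 3 libraries; edgeR's adjusted p = 5.69e-05). The Notch target genes HEY1 and HEYL had log2 fold changes of 1.15 and 1.10, and JAG1, another Notch ligand, of 0.57. HES1 and NRARP, also Notch targets, had log2 fold changes of -0.28 and -0.29, so Notch targets were called in both directions. EPHA4, an ephrin receptor placed at the somite boundary under MESP2 in the mouse, fell from 53.8 ± 1.42 to 20.5 ± 0.849 CPM (SD over n = 3 libraries; log2 fold change -1.39; edgeR's adjusted p = 1.28e-12). SNAI2 and DKK1 had log2 fold changes of 1.49 and 1.58, and for DKK1 1 control library lay under the CPM minimum of the filter.

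**Figure D4:**
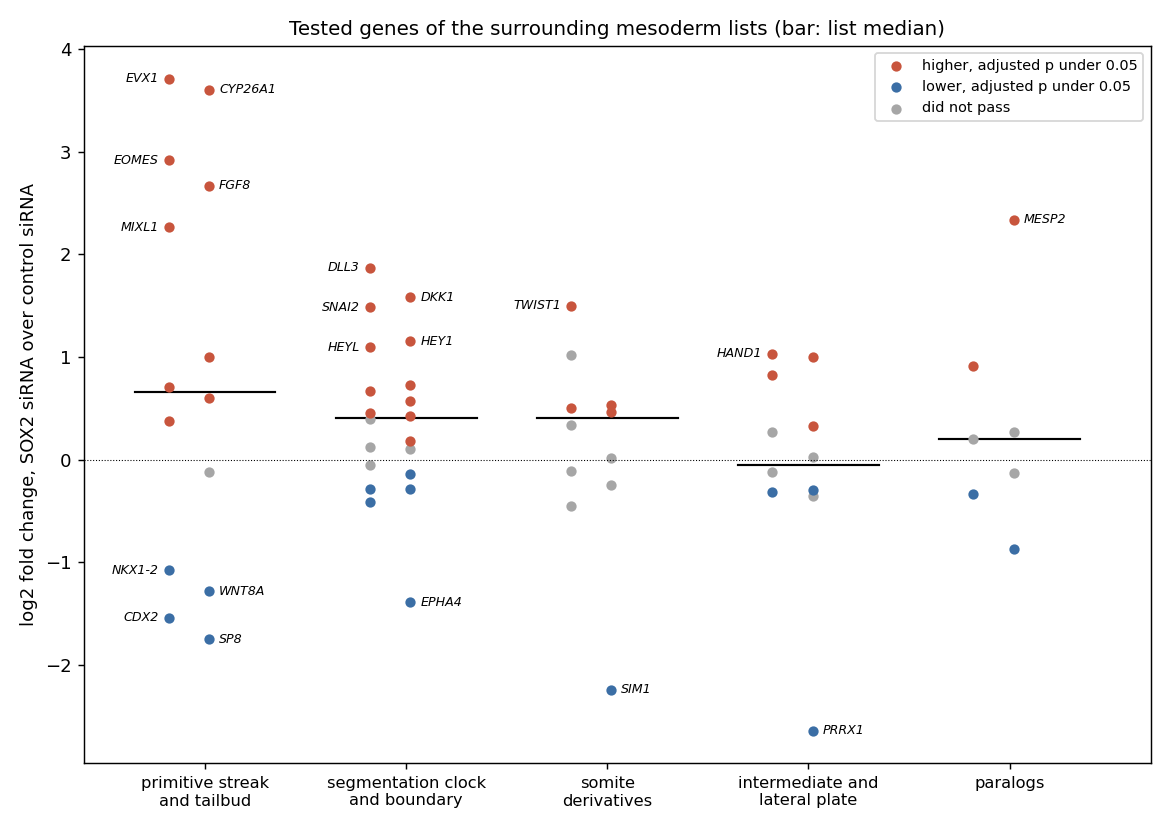
Log2 fold change of SOX2 siRNA over control siRNA (vertical axis) for each tested gene of 5 lists, called higher (red), called lower (blue) or not passed (grey), with the list median as a bar; names mark called genes changed at least 2-fold, and genes not reported here are not drawn. The streak and tailbud list runs from SP8 at -1.75 to EVX1 at 3.71, and the list of intermediate and lateral plate genes has a median near 0 (-0.05).

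Of 24 genes of later somite derivatives, 12 were too low to test, and 5 of those had no count in any library, among them the muscle factors MYF5, MYF6 and MYOG and the sclerotome gene UNCX. Of the 12 tested, 5 were called higher and 1 lower, where 28.2% of all tested genes were called in either direction, and the median log2 fold change was 0.40. TWIST1, a helix-loop-helix factor of sclerotome and other mesenchyme, had 96, 93 and 86 counts in control and 264, 281 and 286 in SOX2 siRNA libraries (2.83-fold; edgeR's adjusted p = 2.32e-08). SOX9, a cartilage factor, and SIX4, a homeobox gene of muscle precursors, had log2 fold changes of 0.53 and 0.50. SIM1, which marks lateral dermomyotome and also hypothalamic neurons, went from 1.56 ± 0.381 to 0.325 ± 0.0376 CPM (SD over n = 3 libraries; log2 fold change -2.24), with 1 SOX2 siRNA library reaching the CPM minimum of the filter. PAX3, the dermomyotome and neural crest factor, was high in both groups, at 75.5 ± 0.190 and 69.9 ± 2.26 CPM, and did not pass (edgeR's adjusted p = 0.0549). That outcome depends on the setting: the adjusted p was 0.0206 with upper-quartile scaling, 0.0415 with total counts, 0.0484 with the filter of 10 counts in every library and 0.0442 with the replicate number as a block, and it reached 0.147 with 1 library left out. NKX3-2, which acts downstream of PAX1 in sclerotome, had 0, 2 and 0 counts in control and 5, 4 and 2 counts in SOX2 siRNA libraries.

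For comparison, genes of the other mesoderm territories gave 4 higher and 4 lower among 12 tested of 20, where 28.2% of all tested genes were called in either direction, with a median log2 fold change of -0.05. GATA4, a factor of cardiac and endodermal cells, had 233, 145 and 199 counts in control and 406, 411 and 403 in SOX2 siRNA libraries. HAND1, a lateral plate factor, had a log2 fold change of 1.03. PRRX1, a lateral plate and limb factor, had 15, 11 and 17 counts in control and 1, 4 and 2 in SOX2 siRNA libraries (log2 fold change -2.64), and it passed the filter only through the control libraries. The lists were not compared with one another by a test.

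The genes whose profile over the 6 libraries lay nearest to each of the 5 called genes were found by distance on log2 CPM after subtraction of each gene's mean. For FOXC1 they were PDGFRB, NTM and SULF1, at distances of 0.143 to 0.195, and PDGFRB went from 28.5 ± 0.998 to 106 ± 0.393 CPM (SD, n = 3). For TBX6 they were HMCN1, COLEC12 and LRP2, at 0.0906 to 0.144. For TCF15 they were PSD2, CPED1 and LRP2, at 0.232 to 0.308, and for RIPPLY1 KCNA5, EOMES and FRZB, at 0.316 to 0.369. MEOX1 had no neighbour as near: CER1, KCNA5 and ST8SIA4 lay at 0.519 to 0.527. Profiles over 2 groups of 3 libraries are set mostly by the difference between groups, and the added count of 2 draws genes of low count such as RIPPLY1 and TBX6 toward smaller differences. These neighbours are a description of likeness over these 6 libraries.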

How the data were processed

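The authors deposited 1 table of raw read counts per gene symbol for 6 libraries; no value column was left unassigned. RNA came from a Trizol extraction and libraries from a KAPA mRNA HyperPrep kit, per the labels' protocols. The submitters' processing notes name bcl2fastq 2.20.0, STAR 2.7.3a, Salmon 0.14.1, DESeq2 1.28.1 and GRCh38.p13; their roles, the annotation and the use of strand are not given in the sources used here. Columns were matched to libraries by the identifier in each description.

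The counts were analysed in R 4.3.3 with edgeR 4.0.16: filterByExpr (minimum count 10), TMM scaling, and the quasi-likelihood F-test on group (robust=TRUE) over 17592 genes, with Benjamini-Hochberg adjustment over all of them and a threshold of 0.05. CPM values use TMM-scaled library sizes. Alternatives used DESeq2 1.42.0 and limma 3.58.1; tables and plots used Python 3.11.15. Tested on simulated data for this comparison (17300 genes, with 200 genes changed), the fit recovered 64.0% of 1.5-fold, 84.0% of 2-fold, 98.0% of 4-fold and 96.0% of 8-fold changes. Of its calls 7.07% were false, more than the threshold of 0.05 aims at. In the real data 4964 genes were called, far more than were changed in the simulation, so these rates need not hold there. Coordinates and exon lengths are from GENCODE 29 (GRCh38), promoter windows from RefSeq (GRCh38.p14); neither need be the annotation the authors used.

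The 10 genes and all lists were chosen with earlier results of these data known. Named are SOX2, the 10 genes, every forkhead cluster neighbour, the called genes of each list with at least a 2-fold change or among its 4 smallest p-values, and the 3 nearest profiles per called member (average log2 CPM of at least 0, prior count 2). Some genes that meet this rule are not reported here. Other list genes (among them RIPPLY3, CDX1, LFNG and PAX3) and CLDN2 were named after their values were seen. Intervals and limits cover counting error only, and the intervals use counts pooled over the libraries of a group, which leaves out the spread between libraries. Reads carry no molecular identifiers, so even the counting error may be larger than given. No library was left out.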

Additional observations from a re-analysis of the deposited data

How the results depend on the processing

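The alternatives were DESeq2 size factors, upper-quartile scaling, total counts, a filter of 1 count in total, a filter of 10 counts in each library, limma-voom, the Wald test of DESeq2, no robust dispersion, the replicate number as a block, and each library left out in turn. SOX2 ranged from -2.32 to -2.25 and genes called from 3760 to 5212. The number of the 10 genes called was 5 in every setting but the filter of 10 counts in every library, which drops RIPPLY1 and gave 4. With each library left out in turn it was 5. All settings refit the libraries on which the genes were chosen, so this shows only how the calls depend on processing. Of 848 values for 57 single genes under alternatives none reversed, 5, all of MSC, lost their call, and 4, all of PAX3, gained one. A gene removed by the filter of a setting has no value there and is not counted as a lost call. The filter of 10 counts in every library removed RIPPLY1, MESP2, EVX1, FGF8, DKK1, SIM1 and PRRX1 in this way. Outside RIPPLY1, whose fitted value has no meaning as a fold, the widest range was that of MESP2, from 1.93 to 3.35. With the replicate block 5177 genes were called, 4829 of them among the 4964 of the unblocked fit, and the block changed no call among the 10 genes; 2 of 6 libraries correlated best with their own number (same-numbered r of 0.0868, -0.0377 and -0.0311), so the numbers are not used as pairs. Depth limits MESP1, FOXC2 and MSGN1, for which at most 10 counts in any library stand behind a value.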
